A study of Mus musculus with 8 samples.

Results

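The genes described here are 10 components of the extracellular matrix of skeletal muscle, namely the matricellular proteins periostin (Postn), SPARC, thrombospondin 1 and 2 (Thbs1, Thbs2) and tenascin C (Tnc), fibronectin (Fn1), and the elastic fibre and microfibril proteins fibrillin 1 (Fbn1), elastin (Eln), Mfap4 and Mfap5. They were taken by name and read from the probe set carrying each gene's Entrez identifier, which found all 10 among 21212 probe sets. Expression was measured on 8 Affymetrix Mouse Gene 1.0 ST arrays, 4 from the unloaded group and 4 from the weight bearing group. The unloaded group consisted of C57BL/6J females, 7 weeks of age, whose hind limbs were held off the cage floor for 5 days. The weight bearing group were females of that strain and age with full use of their hind limbs. The RNA of each array came from the gastrocnemius and plantaris muscles of a separate mouse, so that p-values measure the spread between mice. It is whole-muscle RNA, in which fewer cells of a type and less RNA per cell cannot be told apart. Array medians lay between 6.28 and 6.33 on the log2 scale. Arrays correlated with r of 0.996 to 0.997 within a group and of 0.992 to 0.994 between groups. The 8 muscle fibre markers examined had 3 members called lower by limma (1 after quantile normalization) and 0 called higher. Of all probe sets 11.0% were called lower and 12.8% higher. The log2 changes of these markers lay between -0.33 and 0.01. Their summed linear signal was 57211 to 58950 in unloaded and 60790 to 63291 in weight bearing arrays, with no overlap.

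Matricellular proteins are secreted into the matrix, where they act less as building material than as adaptors. They bind collagens, growth factors and cell surface receptors, and several are produced in quantity when tissue is growing, injured or under load. Elastic fibres have a different construction, in which fibrillin microfibrils form a scaffold and elastin is laid down on it and crosslinked by lysyl oxidases. Fibrillin microfibrils also hold latent TGF-beta complexes. In skeletal muscle most of these proteins come from fibroblasts and related stromal cells between the fibres and at the tendon junction, while smooth muscle and endothelial cells of the vessels contribute elastin and thrombospondins.

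RefSeq promoter sequences (GRCm38.p6) were available for 5 of the 10 genes, and the 250 bases before the start are shown for 3 of them, because they include a pair with large falls, Postn and Tnc, and a gene with no called change, Thbs2. Postn and Tnc each have 2 annotated starts, and the start shown is the one preceded by a TATATAA. The windows are chr3:54360857-54361106 on the plus strand for Postn, chr4:64046937-64047186 on the minus strand for Tnc and chr17:14694263-14694512 on the minus strand for Thbs2. Capitals mark matches, on either strand, to TATATAA (bound by the basal transcription machinery), CAGAC (a Smad element), GGGCGG (a GC box) or the kappaB consensus.
Postn: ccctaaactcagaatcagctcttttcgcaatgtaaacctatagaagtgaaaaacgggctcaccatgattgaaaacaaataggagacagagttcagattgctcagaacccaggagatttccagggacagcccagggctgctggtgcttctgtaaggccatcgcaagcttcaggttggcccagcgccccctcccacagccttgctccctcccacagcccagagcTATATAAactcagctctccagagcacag
Tnc: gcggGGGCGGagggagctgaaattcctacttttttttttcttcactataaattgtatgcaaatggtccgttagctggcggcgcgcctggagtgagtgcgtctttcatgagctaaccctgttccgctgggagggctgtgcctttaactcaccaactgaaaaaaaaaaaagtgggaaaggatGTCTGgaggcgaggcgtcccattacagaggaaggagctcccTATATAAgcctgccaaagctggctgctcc
Thbs2: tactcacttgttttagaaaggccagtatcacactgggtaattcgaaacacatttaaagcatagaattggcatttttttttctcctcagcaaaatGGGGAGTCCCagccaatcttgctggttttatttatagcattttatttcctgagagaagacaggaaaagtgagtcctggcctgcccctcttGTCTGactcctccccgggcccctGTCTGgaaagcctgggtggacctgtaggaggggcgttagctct
TATATAA began 28 bases before the start of Postn and 29 bases before that of Tnc, and 3.04% of all 32851 promoter windows of the same length held these letters on either strand. The windows of Sparc, Fbn1 and Thbs2 and the other windows of Postn and Tnc did not hold it. It was thus in 2 of the 7 windows of these 5 genes. As the starts shown for Postn and Tnc were picked for it, the share over all windows is no test. CAGAC matched in Tnc, Thbs2, Sparc and the other Postn window, against 42.2% of all windows, and GGGCGG in both Tnc windows and in Fbn1, against 32.7%. The Tnc windows overlap and hold the same GGGCGG, so they are not separate matches. The kappaB consensus matched once, in Thbs2, 156 bases before the start, against 7.25% of all windows. GGAATG (MCAT element), TGANTCA (AP-1 site) and the CArG box had 0 matches in the 7 windows of these 5 genes, against 12.6%, 6.75% and 1.47% of all windows. The motifs are a description of these letters only.

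Most of the 10 genes were expressed at lower levels in unloaded muscle, and one was expressed at a higher level. At an adjusted p under 0.05 (limma, Benjamini-Hochberg over all probe sets), 7 of the 10 were lower, whereas 11.0% of all probe sets were, and 1 was higher, whereas 12.8% of all probe sets were. The 7 lower genes were Postn, Tnc, Mfap4, Fbn1, Fn1, Sparc and Mfap5, and the higher gene was Thbs1. Thbs2 and Eln were not called. Of the 10 genes, 6 were called and at least 2-fold lower, against 0.288% of all probe sets, and 7 were at least 1.5-fold lower, against 1.47%. Every unloaded array lay below every weight bearing array in 7 genes, against 12.0% of all probe sets, and above in 1 gene, against 15.5%. The methods' t-test called 7 genes lower and 1 higher with Storey's q-values, against 11.3% and 14.3% of all probe sets. With Benjamini-Hochberg adjustment it called 7 lower and 0 higher, against 6.48% and 6.57%. The median log2 change (unloaded minus weight bearing) was -1.16 over the 10 genes and 0.04 over all probe sets.

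**Figure D1:**
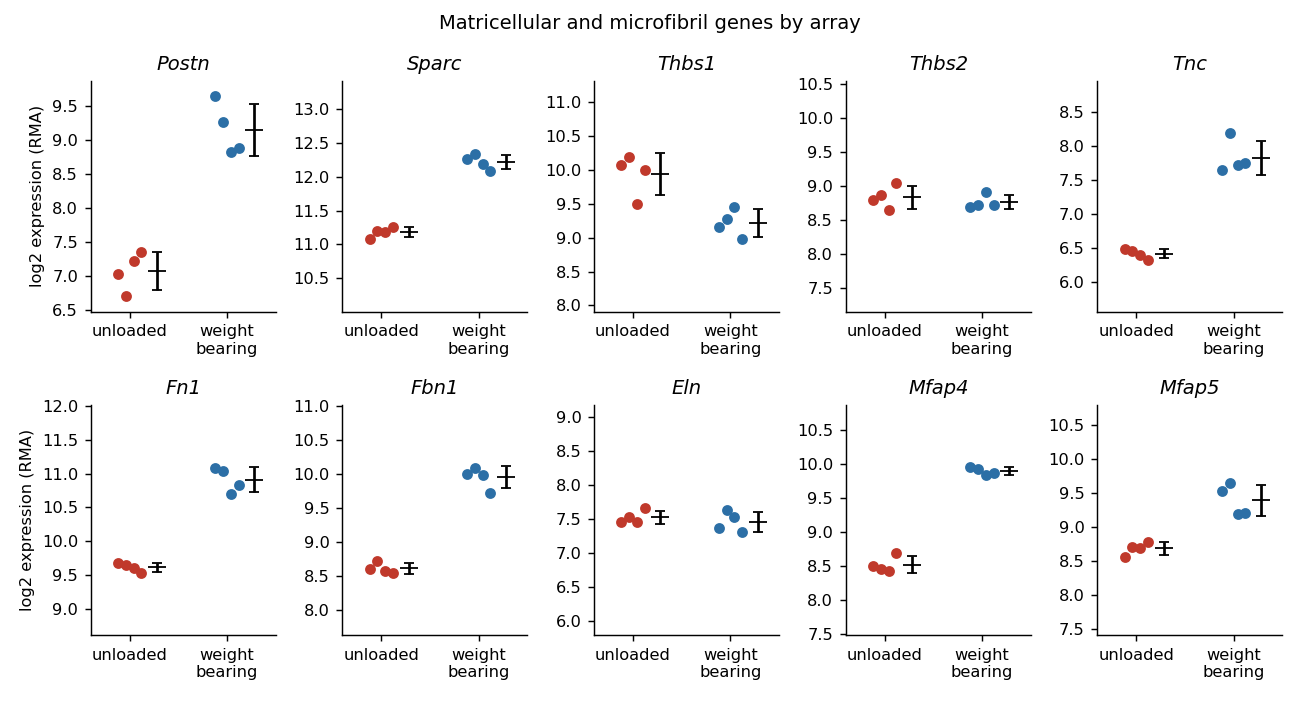
Log2 expression of each of the 10 genes in the 4 unloaded (left) and 4 weight bearing (right) arrays, 1 point per array in the order of replicates 1 to 4, with the mean and SD as a bar beside the points. All vertical axes span the same log2 range but start at different levels. In Postn, Sparc, Tnc, Fn1, Fbn1, Mfap4 and Mfap5 all unloaded points lie below all weight bearing points, in Thbs1 they lie above, and in Thbs2 and Eln they overlap.

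Periostin, a fasciclin-domain protein that binds type I collagen and fibronectin and takes part in collagen fibril formation, had the largest change of the 10. Postn was at 7.02, 6.70, 7.22 and 7.35 (log2) in unloaded replicates 1 to 4, and at 9.65, 9.26, 8.82 and 8.89 in weight bearing replicates 1 to 4. The lowest weight bearing array was 1.47 above the highest unloaded array, and each group spread over less than that, by 0.65 in unloaded and 0.83 in weight bearing muscle. Postn was 4.24-fold lower (log2 change -2.08, SE 0.19, limma adjusted p = 6.3e-05), which placed its level in unloaded muscle at 23.6% of that in weight bearing muscle. Only 3 of the 21212 probe sets had a more negative log2 change. The methods' t-test run on linear values did not call it (adjusted p = 0.0657). Tgfbi, the closest relative of periostin, was at 9.30 ± 0.052 in unloaded and 9.15 ± 0.15 in weight bearing muscle (SD, n = 4 arrays each) and was not called (limma adjusted p = 0.163).

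Tenascin C, a large oligomeric glycoprotein known from tendon and the myotendinous junction, fell as well. Tnc was at 6.48, 6.45, 6.40 and 6.32 in unloaded replicates 1 to 4, against 7.64, 8.20, 7.72 and 7.75 in weight bearing replicates 1 to 4 (log2). The unloaded arrays lay close together, within 0.16 of each other, while weight bearing replicate 2 was above the other 3. Unloaded Tnc lay near the array medians (6.28 to 6.33), where the size of a fall may not show in full. The log2 change was -1.41 (SE 0.11, 2.66-fold lower, limma adjusted p = 2.4e-05), and the methods' t-test on linear values left it just short of the threshold (adjusted p = 0.0508). Tenascin X (Tnxb), which is found in loose connective tissue, also fell (1.43-fold, limma adjusted p = 8.3e-04). Tenascin R and tenascin N were not called (log2 changes -0.01 and -0.05). Their log2 means were 4.54 and 4.83 in unloaded and 4.55 and 4.88 in weight bearing muscle. These lie below the array medians, where a change may not show.

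Fibronectin, the adhesive glycoprotein on which many cells assemble their first matrix, was at 9.68, 9.65, 9.60 and 9.54 in unloaded replicates 1 to 4 and at 11.08, 11.04, 10.70 and 10.83 in weight bearing replicates 1 to 4 (log2). The groups were 1.02 apart at their nearest arrays. Fn1 was 2.45-fold lower (log2 change -1.29, SE 0.083, limma adjusted p = 1.1e-05). SPARC, a collagen-binding protein needed for the normal handling of procollagen outside the cell, was at 11.08, 11.19, 11.18 and 11.26 in unloaded arrays and at 12.26, 12.33, 12.19 and 12.08 in weight bearing arrays. Sparc had little spread in either group (SD 0.074 in unloaded, 0.11 in weight bearing), and was 2.05-fold lower (log2 change -1.03, SE 0.064, limma adjusted p = 8.8e-06). Its homolog Sparcl1 was lower too, by 1.33-fold (limma adjusted p = 3.0e-04).

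The microfibril genes fell as well, and elastin did not. Fbn1, which encodes the main structural unit of the microfibril, was at 8.61, 8.72, 8.57 and 8.55 in unloaded replicates 1 to 4 and at 10.005, 10.10, 9.99 and 9.72 in weight bearing replicates 1 to 4 (log2). It was 2.53-fold lower (log2 change -1.34, SE 0.080, limma adjusted p = 7.8e-06), with 1.00 between the nearest arrays of the groups. Mfap4, a fibrinogen-related protein that binds fibrillin and tropoelastin, was at 8.50, 8.45, 8.42 and 8.70 in unloaded arrays, against 9.96, 9.93, 9.84 and 9.87 in weight bearing arrays. It was 2.60-fold lower (log2 change -1.38, SE 0.065, limma adjusted p = 3.7e-06). Mfap5, the microfibril-associated glycoprotein also called MAGP-2, was at 8.56, 8.71, 8.68 and 8.77 in unloaded arrays and at 9.54, 9.64, 9.19 and 9.20 in weight bearing arrays. Its fall was the smallest of the 7, 1.64-fold (log2 change -0.71, SE 0.10, limma adjusted p = 9.9e-04), and the methods' t-test on linear values did not call it (adjusted p = 0.0754). Eln, which encodes the elastin core of the fibre, was at 7.46, 7.53, 7.45 and 7.66 in unloaded arrays and at 7.37, 7.63, 7.53 and 7.31 in weight bearing arrays. The groups overlapped, and the log2 change of 0.07 had a 95% interval of -0.11 to 0.24 (limma adjusted p = 0.561).

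The thrombospondins did not move together. Thbs1, which binds the receptors CD36 and CD47 and can activate latent TGF-beta, was the one gene of the 10 that rose. It was at 10.08, 10.18, 9.50 and 10.003 in unloaded replicates 1 to 4, against 9.16, 9.27, 9.46 and 8.97 in weight bearing replicates 1 to 4 (log2). The groups were separated by 0.04, between unloaded replicate 3 and weight bearing replicate 3. Thbs1 rose 1.65-fold by limma (log2 change 0.72, SE 0.15, adjusted p = 0.00582), while the methods' t-test called it with Storey's q-value (q = 0.0274) but not with Benjamini-Hochberg adjustment on the log2 scale (adjusted p = 0.0618) or on linear values (0.0879). Thbs2, a regulator of collagen fibril assembly in mouse skin and an inhibitor of vessel growth, was at 8.79, 8.87, 8.65 and 9.05 in unloaded arrays and at 8.69, 8.72, 8.92 and 8.73 in weight bearing arrays. These groups overlapped (log2 change 0.07, 95% interval -0.12 to 0.27, limma adjusted p = 0.553). The pentameric members of the family fell, Thbs3 by 1.26-fold, Thbs4 by 1.34-fold and Comp, a cartilage and tendon protein, by 1.92-fold (limma adjusted p = 0.00337, 8.6e-04 and 7.9e-05). Thbs1 is also abundant in platelets. Of 5 measured platelet markers 0 were called higher and 1, Pf4, was called lower (log2 change -0.38), against 12.8% and 11.0% of all probe sets. None was at 0 on the log2 scale, which does not show that each was detected. Ppbp, Gp9, Gp1bb and Itga2b were not called but had positive log2 changes (0.53, 0.34, 0.16 and 0.14). The median log2 change of the 5 was 0.16. Their summed linear signal was 548 to 1045 in unloaded and 522 to 695 in weight bearing arrays, so that the groups overlapped. The part of platelets in the Thbs1 values was not tested.

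**Figure D2:**
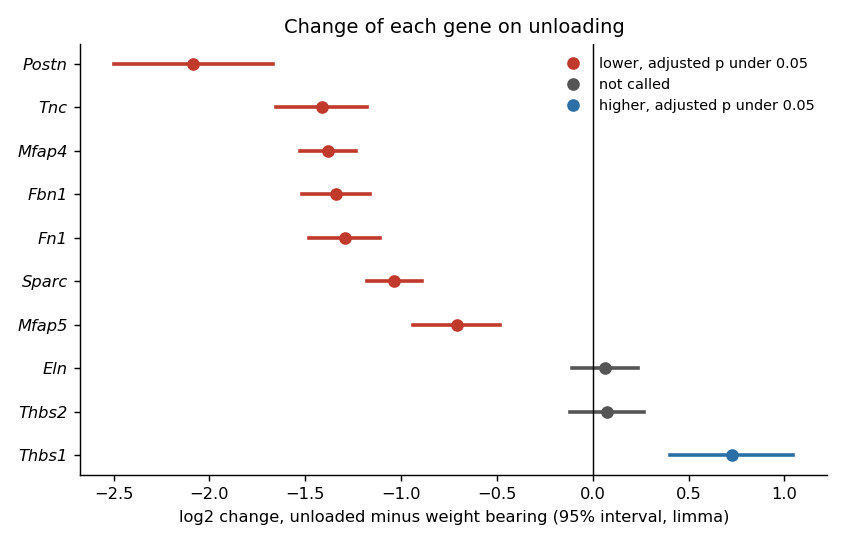
Log2 change of each of the 10 genes, unloaded minus weight bearing, with its 95% interval from limma (n = 4 arrays each), ordered from the largest fall to the rise. Postn, in the top row, is furthest left at -2.08, the intervals of Eln and Thbs2 include 0, and Thbs1, in the bottom row, is right of 0 at 0.72.

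The 7 pairs here describe how far related genes differed in their change. They were chosen with results of these data known, some of them pairing a called gene with one that was not, so that their p-values describe the spread between arrays and are not independent evidence. The log2 difference of 2 genes was taken within each array and compared between the groups by an exact two-sided permutation test over arrays, with adjustment over 7 pairs. The smallest p that 70 arrangements of 4 and 4 arrays allow is 0.0286, which becomes 0.0333 after adjustment here. The log2 change of Thbs2 minus that of Thbs1 was -0.65 (95% interval -0.98 to -0.31, exact p = 0.0286, adjusted p = 0.0333). Without weight bearing replicate 4 this contrast was -0.58 with an adjusted p of 0.0667. The same difference was -1.41 for Fbn1 minus Eln (interval -1.61 to -1.20) and -0.67 for Mfap4 minus Mfap5 (interval -0.93 to -0.41), both at the smallest exact p. In both pairs the unloaded and weight bearing arrays did not overlap. For Postn it was -2.23 against Tgfbi (interval -2.82 to -1.65) and -0.79 against Fn1 (interval -1.28 to -0.30), again at the smallest exact p, and the contrast with Fn1 had an adjusted p of 0.0667 without weight bearing replicate 1, 2 or 3 (values -0.68, -0.79 and -0.83). Sparc minus Sparcl1 gave -0.62 (interval -0.84 to -0.40, exact p = 0.0286). Fbn1 and Fn1 changed by amounts that were not distinguished (difference -0.05, interval -0.28 to 0.19, exact p = 0.771).

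**Figure D3:**
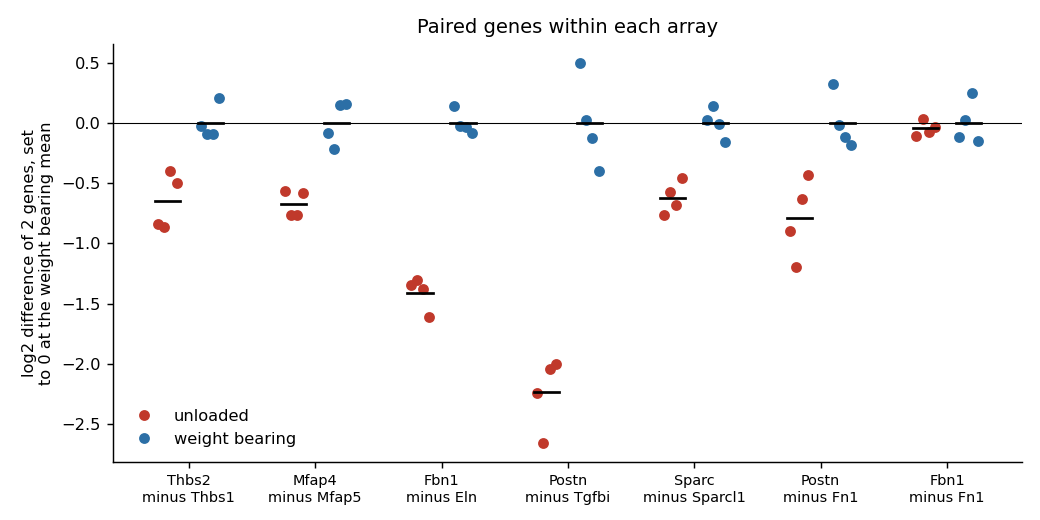
Log2 difference of each of 7 gene pairs within an array, set to 0 at the weight bearing mean of that pair, with unloaded arrays on the left and weight bearing arrays on the right of each pair (1 point per array, bars are means). The unloaded arrays lie below the weight bearing arrays in 6 pairs, furthest in Postn minus Tgfbi (-2.23), and they overlap in Fbn1 minus Fn1.

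The 10 genes also varied from array to array within a group. Of the weight bearing arrays, replicate 4 had 0 of the 10 genes above the mean of its group and replicate 2 had 9. Among unloaded arrays the counts were 3, 8, 3 and 7 for replicates 1 to 4, and replicate 4 held the highest value of its group in 6 genes. The mean deviation over the 10 genes ran from -0.07 to 0.08 (log2) in unloaded arrays and from -0.14 to 0.13 in weight bearing arrays. The 8 called genes were each called with any 1 array left out (largest limma adjusted p 0.0191, for Thbs1). Over all 8 arrays, the 5 genes whose log2 values followed the mean of the 10 scaled genes (Thbs1 included with its own, opposite change) most closely, among 20699 candidates, were Agap1 (r = 0.99), Acsl5 (0.99), Alpk3 (0.98), Ldb3 (0.98) and Lsm3 (0.98). With group means subtracted they were Dpm2 (r = 0.98), Galnt3 (0.97), G6pdx (0.97), Mterf1b (0.96) and Chrnb1 (0.96), all over 8 arrays that share their normalization. Over all 8 arrays the r of Dpm2, Galnt3, G6pdx, Mterf1b and Chrnb1 was 0.41, -0.03, 0.50, -0.47 and -0.74. The r values of both lists are the highest among 20699 candidates and were not tested against chance. Acsl5, Ldb3 and Lsm3 were lower in unloaded muscle (1.32, 1.19 and 1.30-fold), and Mterf1b and Chrnb1 were higher (log2 changes 0.21 and 0.58). Agap1, Alpk3, Dpm2, Galnt3 and G6pdx were not called.

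Beyond the 10 genes, falls were also seen among other matricellular and microfibril genes and the lysyl oxidases. Of all probe sets limma called 11.0% lower and 12.8% higher. Of 20 other measured matricellular genes 9 were lower and 0 higher (median log2 change -0.20), and 1 was higher without unloaded replicate 1 or 3. Fstl1, a secreted protein of the SPARC family, was 2.14-fold lower (mean 8.55 ± 0.11 unloaded, 9.65 ± 0.15 weight bearing, SD, n = 4 arrays each, limma adjusted p = 2.3e-05), and Comp and Tnxb followed. Of the CCN family, Ccn3 was 1.54-fold lower by limma (adjusted p = 0.00571) and, using Storey's q-value, in the methods' t-test, though not there with Benjamini-Hochberg adjustment (adjusted p = 0.0556), and Ccn4 was 1.43-fold lower, while Ccn1, Ccn2 and Ccn5 were not called (log2 changes 0.48, -0.19 and 0.17). Of 26 other microfibril and elastic fibre genes 13 were lower and 1, Adamtsl4, was higher (median log2 change -0.19). The methods' t-test called 14 lower and 1 higher with Storey's q-values, and 7 and 0 with Benjamini-Hochberg adjustment, and limma called 2 higher without unloaded replicate 1. The fibulins Efemp1 and Efemp2, which take part in elastic fibre assembly, were 1.68 and 1.42-fold lower (limma adjusted p = 4.4e-04 and 8.7e-04), and Adamtsl5 was 1.43-fold lower (adjusted p = 2.2e-04). Fbln5, which links tropoelastin to cells and crosslinking enzymes, was 1.34-fold lower, and Fbln1 had a log2 change of 0.00. Of the 5 lysyl oxidases, the enzymes that crosslink collagen and elastin, 4 were lower and 0 higher. Loxl2 fell 1.91-fold, Loxl1 1.58-fold and Loxl4 1.45-fold (limma adjusted p = 1.5e-05, 1.6e-04 and 3.5e-04), whereas Lox was not called (8.46 ± 0.19 in unloaded and 8.59 ± 0.27 in weight bearing muscle, SD, n = 4 arrays each, adjusted p = 0.483).

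**Figure D4:**
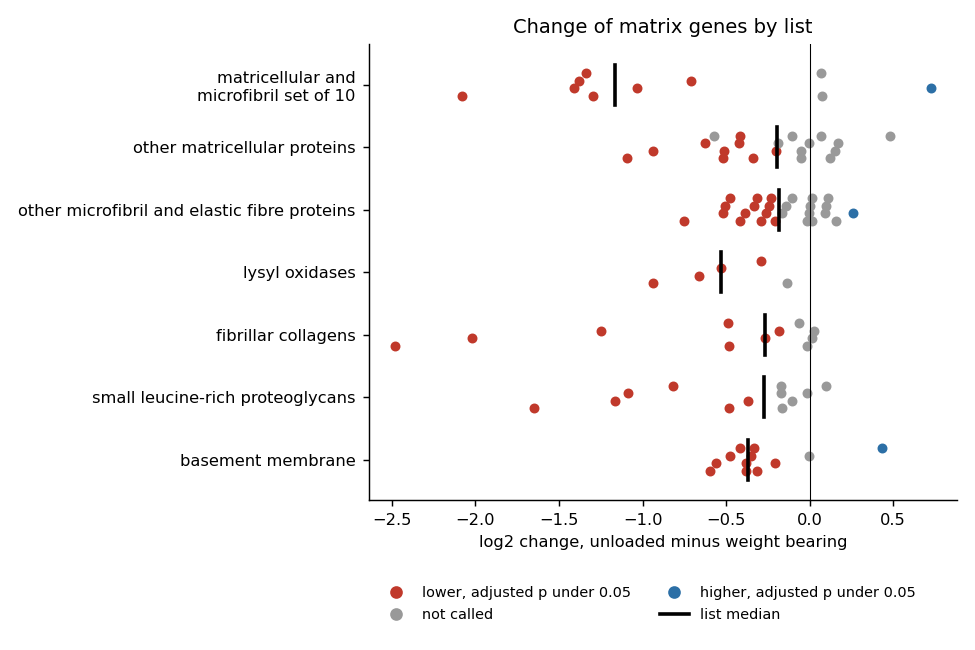
Each measured gene of 7 matrix lists as its log2 change (unloaded minus weight bearing), 1 point per gene, coloured by its limma call, with the list median as a black bar. The median is -1.16 for the 10 genes described here and lies between -0.53 and -0.19 for the other lists, and the lowest point is Col1a1 at -2.48.

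Among receptors that bind these proteins, 7 of 15 were lower and 1 higher. For this and the next lists, the limma shares over all probe sets were 11.0% lower and 12.8% higher. Itgb6, the beta 6 integrin chain that with the alpha v chain binds fibronectin and the latency peptide of TGF-beta, was 1.80-fold lower (mean 8.65 ± 0.12 unloaded, 9.50 ± 0.14 weight bearing, SD, n = 4 arrays each, limma adjusted p = 8.7e-05), and the alpha v chain Itgav was 1.28-fold lower. Itgb5 was 1.21-fold higher (adjusted p = 0.00702). The thrombospondin receptors CD36 and CD47 were not called (log2 changes -0.07 and -0.12). Of 12 genes of TGF-beta signalling, which induces several of the 10 genes in fibroblasts, 5 were lower (3 under Storey's q-values and 1 under Benjamini-Hochberg adjustment in the methods' t-test) and 4 higher. The ligand Tgfb3 fell 1.45-fold, while the receptor Tgfbr1 and the inhibitory Smad7 rose 1.36 and 1.37-fold (limma adjusted p = 3.4e-04, 5.1e-04 and 0.00331). Of 15 regulators of matrix genes 6 were lower (6 under Storey's q-values and 3 under Benjamini-Hochberg adjustment in the methods' t-test) and 0 higher, among them Mrtfa (1.58-fold) and Srf (1.33-fold), which together drive genes of the actin cytoskeleton (limma adjusted p = 3.5e-04 and 1.8e-04). Egr1 had the largest log2 change of that list, -0.82 (limma adjusted p = 0.0215), but its groups overlapped. The methods' t-test with Benjamini-Hochberg adjustment did not call Egr1 (adjusted p = 0.106). Yap1 and Wwtr1, mediators of mechanical signals, were not called (log2 changes -0.11 and 0.04). Tead1 was 1.23-fold lower (limma adjusted p = 0.00438), while Tead2, Tead3 and Tead4 were not called (log2 changes 0.02, -0.01 and -0.08).

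Beside the 10 genes stand 3 other matrix lists, to be read against 11.0% of all probe sets called lower and 12.8% called higher by limma. Of 11 fibrillar collagens 7 were lower (7 under Storey's q-values and 4 under Benjamini-Hochberg adjustment in the methods' t-test) and 0 higher (median log2 change -0.27), with Col1a1 and Col1a2 furthest down at -2.48 and -2.02. Of 12 small leucine-rich proteoglycans 6 were lower and 0 higher (median -0.27), with Kera at -1.65 and Lum at -1.16. Of 12 basement membrane genes 10 were lower and 1, Lama5, was higher (median -0.37), with the furthest fall at -0.60 in Nid1. These counts and medians were not tested against each other.

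Markers of several other cell types moved with the falls. The counts stand beside 11.0% of all probe sets called lower and 12.8% called higher by limma. Of 10 fibroblast markers 7 were lower and 0 higher (median log2 change -0.84), and their summed linear signal was 10394 to 10758 in unloaded and 12398 to 13241 in weight bearing arrays, with no overlap. Within that list the interstitial proteoglycan Dcn, Pdgfra and Gsn were not called (log2 changes -0.02, -0.11 and -0.11). Of 8 tendon markers 8 were lower, with Tnmd at -1.48, and their summed signal was 5041 to 5573 in unloaded and 7872 to 8745 in weight bearing arrays. Of these, only Tnmd and Mkx are absent from the lists above. Thbs4 and Comp are also among the other matricellular genes, Fmod, Kera and Chad among the proteoglycans and Scx among the regulators. Dcn and Lum of the fibroblast list are proteoglycans as well, so these lists are not independent. Of 8 macrophage markers 6 were lower and 0 higher (median -0.46, summed signal 1119 to 1386 in unloaded and 1510 to 1829 in weight bearing arrays). Of 8 smooth muscle and pericyte markers 1, Cspg4, was lower and 0 higher, near the share of all probe sets called lower. Of 8 endothelial markers 2, Kdr and Emcn, were lower and 0 higher. In both lists the summed signals of the groups overlapped (4348 to 4792 in unloaded and 4579 to 5302 in weight bearing arrays, and 3373 to 3534 in unloaded and 3505 to 4027 in weight bearing arrays). No marker in these lists was at 0 on the log2 scale, which does not show that each was detected. The part of these cell types in the changes of the 10 genes was not tested.

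**Figure D5:**
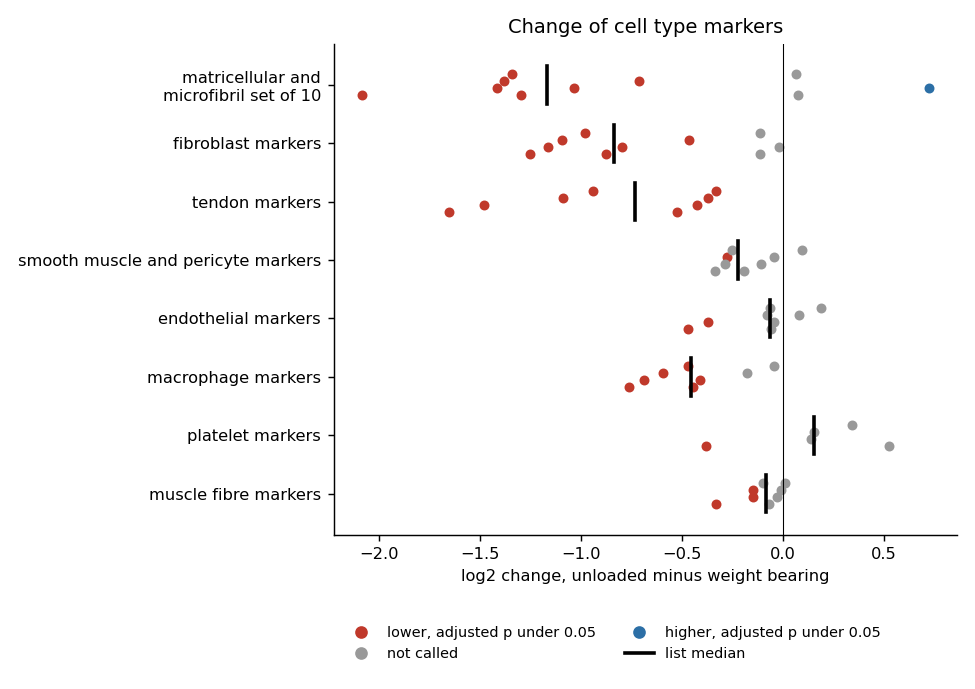
Markers of 7 cell types beside the 10 genes, each as its log2 change (unloaded minus weight bearing), 1 point per gene, coloured by its limma call, with the list median as a black bar. Fibroblast and tendon markers have medians of -0.84 and -0.73, macrophage markers of -0.46, and endothelial and muscle fibre markers of -0.06 and -0.08. Among the endothelial markers 2 are called lower, and among the muscle fibre markers 3. Smooth muscle and pericyte markers have a median of -0.22 and platelet markers of 0.16.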

How the data were processed

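The series measured RNA of gastrocnemius and plantaris muscle on 8 Affymetrix arrays. The authors ran RMA (robust multi-array analysis) on a Brainarray custom probe set definition, in which each probe set stands for 1 Entrez gene, and deposited log2 expression values. RMA corrects the background, equalises the arrays' distributions and summarises probes, which hides any change shared by every gene. No source used here gives the version of RMA or the release of the definition. All 8 columns were used, 0 were left unused, and no pair of arrays was identical. Values of different probe sets were not compared as levels, but linear values were summed over a marker list within each array. In such a sum the brightest probe sets weigh most.

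Probe sets were named by Entrez identifier through the RefSeq table of GRCm38.p6 (20656) or, failing that, the platform annotation (53). Named this way, Fbn1 was included. Unloaded minus weight bearing was fitted with limma 3.58.1 (lmFit, eBayes, R 4.3.3) over 21212 probe sets, without a filter, with Benjamini-Hochberg adjustment and a threshold of 0.05. Intervals of single genes came from that fit, and those of gene pairs from the pooled variance of 8 arrays. Other steps used Python 3.11.15, numpy 2.4.6, pandas 2.3.3 and scipy 1.17.1. The methods' t-test (unequal variances) was run beside limma. The fits were also run on simulated arrays with independent noise in each probe set, as a check of the calculation only. The number of arrays limits the precision.

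The genes, the gene lists and the 7 pairs were chosen with earlier results of these data known, so no p was adjusted over a gene list alone, and the p-values of the pairs, adjusted over 7, are descriptive. Named genes were the 10, up to 4 called genes with the largest change per list (or up to 2 with the smallest p), both genes of a pair and the genes most like the 10. The text prints a part of them and some further family members, chosen after their values were seen. Alternatives were the methods' t-test (also with Storey's q-value and on linear values), an intensity trend with robust variance, array weights, quantile normalization, a filter on the dimmest 25% or 50%, equal array medians, the replicate number as a block, a minimum of 1.5-fold and each array left out in turn.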

Additional observations from a re-analysis of the deposited data

Results flagged for a closer look

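Among 156 groups of 4 arrays examined for a single array far from the others, 2 stood out, where chance gives about 1 in 20, and neither concerned the 10 genes. Col3a1 was at 7.30 (log2) in unloaded replicate 1, against 7.49 to 7.53 in the other unloaded arrays. C1qc was at 7.69 in weight bearing replicate 3, against 7.84 to 7.87 in the other weight bearing arrays.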

How the results depend on the processing

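The 7 falls and the rise kept their direction under all 18 alternative fits, and the count of 7 lower genes changed only with the methods' t-test on linear values, which called 4 (without Postn, Tnc and Mfap5). The count of 1 higher gene, Thbs1, became 0 with the methods' t-test on either scale under Benjamini-Hochberg adjustment and was 1 with Storey's q-values. Eln and Thbs2 were called in no alternative. With the replicate number as a block the counts were again 7 and 1, and those over all probe sets 2213 lower and 2455 higher. Same-numbered arrays deviated together with r of only 0.02 to 0.12, so the numbers were not taken as pairs. Over all probe sets the methods' t-test called 3033 higher and 2403 lower with Storey's q-values, and 1393 and 1374 with Benjamini-Hochberg adjustment (1349 and 1279 on linear values), against 2715 and 2324 by limma. Leaving out 1 array gave between 1802 (without unloaded replicate 3) and 2852 higher. The same gave pair contrasts of -0.73 to -0.58 for Thbs2 minus Thbs1, of -0.91 to -0.65 for Postn minus Fn1 and of -0.098 to 0.037 for Fbn1 minus Fn1, the last of which turned to 0.037 without weight bearing replicate 3. Of the related lists, higher matricellular genes numbered 1 with the block or without the dimmest 50%, lower TGF-beta genes numbered 3 without unloaded replicate 2 or weight bearing replicate 2, 3 or 4, lower muscle fibre markers 1 with the block or without unloaded replicate 2, 3 or 4 or weight bearing replicate 1, 2 or 3, and lower smooth muscle markers 2 without unloaded replicate 1, while linear values left 1 lower endothelial marker.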
